A study of Mus musculus with 48 samples.

Results

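The 48 libraries described here are single aliquots of about 100 sorted nociceptors (sensory neurons tuned to harmful stimuli), and they were kept apart rather than summed. They are all libraries of the series (48 of 48), and they were chosen by a rule on the design alone: every replicate number in a group gave the 3 aliquots A, B and C of 1 ganglion sample, so that 16 ganglion samples were each measured 3 times. The cells were dissociated from L4 dorsal root ganglia of mice aged 8 to 9 weeks, on a mixed background of C57BL/6 and AJ, with 2 males and 2 females per group. All animals carried Nav1.8-Cre and the reporter Rosa26-ZsGreen, whose green fluorescence marked the cells for sorting. Control animals were Tsc2 flox/+, so their nociceptors also lacked 1 working Tsc2 copy, and cKO animals were Tsc2 flox/null. The sciatic nerve was crushed on one side 3 days before collection, and the contralateral ganglia served as uninjured. Both genotypes were thus sampled with and without crush, in 4 ganglion samples for each of the 4 groups. Cre from the Nav1.8 locus acts in most small-diameter sensory neurons and in some larger ones, so the sorted cells were a mixture of subtypes.

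Nociceptors fall into subtypes that each use their own peptides and receptors. Non-peptidergic neurons (NP1) carry the receptor Mrgprd, pruriceptors (NP2 and NP3) carry itch receptors and the peptides Sst and Nppb, peptidergic neurons make Tac1 and Calca products, and C-fibre low-threshold mechanoreceptors (C-LTMR) express Th. A small draw of cells from such a mixture does not hold each subtype in the same share every time, and a ganglion also holds satellite glia, Schwann cells, vascular cells and immune cells that can stick to neurons. In these bulk samples fewer cells of a type and less RNA per cell cannot be told apart.

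Libraries held 5159353 to 34228180 counts assigned to genes, and 15493 to 20466 genes were detected in each. Scn10a, the gene of the Nav1.8 channel whose promoter drives the Cre, was at 109 to 1040 CPM (counts scaled to the library total) in all libraries. Tsc2 itself had medians of 22.3 and 22.9 CPM in uninjured and crushed control libraries and of 8.62 and 8.34 CPM in the cKO libraries, although this gene's counts can include exons outside the deleted segment. One library stood apart. Aliquot C of crush cKO sample 3 had the fewest genes detected of all libraries (15493), and Tsc2 at 0.121 CPM. After removal of the ganglion mean it lay at -89.1 on the first principal component (17.5% of the variance), against 40.8 and 48.3 for aliquots A and B of the same sample. Results that rest on it are given with and without it.

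The first question was which genes varied between aliquots of the same ganglion more than other genes of their level. Among 8471 genes with a mean of at least 10 CPM, the median SD between aliquots was 0.363 on the log2 CPM scale, and the highest aliquot of a ganglion exceeded the lowest by a median of 1.43-fold. Counting error of the reads (Poisson) made up a median of 2.96% of that variance. This share leaves out scatter from the capture and amplification of RNA before reading, whose part in the variance was not tested. The excess of a gene is given as log2 of its quasi-dispersion (the scatter of counts about the ganglion mean in edgeR) over the trend for genes of its level, and 5% of genes lay above 2.37 and 5% below -1.18.

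Penk, which encodes the opioid peptide precursor proenkephalin, had the largest excess (6.59). In uninjured control samples its aliquots A, B and C held 83.1, 2.63 and 4.47 CPM in sample 1, and 391, 2.98 and 38.4 CPM in sample 2. They held 1.01, 0.539 and 63.4 CPM in sample 3, and 3.36, 101 and 42.7 CPM in sample 4. Each of these samples had at least 1 aliquot at or below 4.47 CPM and 1 at or above 63.4 CPM, and the ranges of the 4 samples overlapped. In cKO samples no aliquot fell below 35.2 CPM without injury or below 97.5 CPM after crush. Over the 16 samples the aliquots of Penk spanned a median of 17.5-fold, and at least 4-fold in 14 samples.

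Th, which encodes the rate-limiting enzyme of catecholamine synthesis and marks C-LTMR neurons, followed with an excess of 6.42. Its 3 aliquots held 41.5, 2.84 and 1620 CPM in crush cKO sample 3 and 27.3, 839 and 3310 CPM in uninjured cKO sample 4. In crush control samples 2, 3 and 4 all aliquots lay between 4.38 and 17.1 CPM, so the gene was evenly low there. Penk and Th were the 2 genes called at an adjusted p below 0.05 (edgeR quasi-dispersion against its trend, Benjamini-Hochberg adjusted p = 0.0437 for both), which is 0.0236% of the genes tested. At an unadjusted p below 0.05 there were 644 genes (7.6%), and 48 genes passed an adjusted threshold of 0.1. Without aliquot C of crush cKO sample 3 the count of called genes rose from 2 to 21, with Penk and Th still among them. It fell to 0 without uninjured control sample 1, any 1 uninjured cKO sample, crush control sample 1, or crush cKO sample 1 or 4, and it was 5 and 14 without uninjured control samples 3 and 4.

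**Figure D1:**
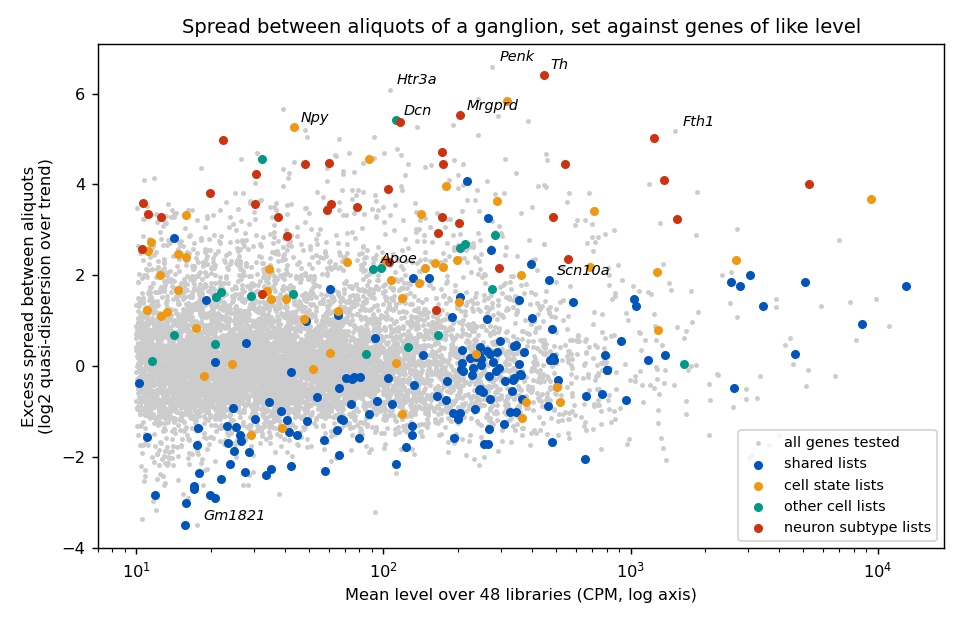
Excess spread between aliquots (y axis, log2 of quasi-dispersion over its trend) against mean level over the 48 libraries (x axis, CPM, log axis) for 8471 genes, with members of the gene lists coloured by class. Penk and Th lie at the top with excesses of 6.59 and 6.42, and the predicted gene Gm1821 is at the bottom with -3.50.

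Since so few genes were called, the 200 genes with the largest excess (2.36% of those tested) are described below without a test, a choice made after the values were seen. The least variable of them, Lxn, had an excess of 3.154 and the next gene outside, Trpv1, had 3.149. Their median SD between aliquots was 1.32, and the aliquots of a sample spanned a median of 3.11-fold. The means of ganglion samples within a group, each over 3 aliquots, had a median SD of 0.858 for these genes and of 0.244 for all genes, a scale that is not that of single aliquots. The spread was seldom the work of 1 sample: a single ganglion sample held more than 50% of the squared deviations in 10 of the 200 genes (5%), against 8.96% of all genes tested. Without aliquot C of crush cKO sample 3, 184 of the 200 remained among the 200 largest. In 41 of the 200, aliquots differed at least 4-fold in 10 or more samples.

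Behind Penk and Th came Htr3a, a subunit of the ionotropic serotonin receptor, with an excess of 6.09. Its aliquots in uninjured control sample 3 held 3.64, 75.0 and 415 CPM, while in uninjured cKO sample 1 all of them lay at 0.217 to 0.528 CPM. Anxa1, which encodes annexin A1, was low in every uninjured control aliquot (0.925 to 10.1 CPM) and reached 1240 CPM in crush control ones. In crush control sample 4 its aliquots held 1240, 68.2 and 12 CPM, so the level after crush differed by aliquot. Ceacam10 (5.66), the C-LTMR gene Fam19a4 (5.37) and the sodium channel beta subunit gene Scn4b (5.31) ranked close by. Npy, the neuropeptide Y gene that sensory neurons switch on after injury, had an excess of 5.26. Npy was at or below 1.10 CPM in all uninjured control aliquots, and in crush control sample 1 its aliquots held 0.449, 491 and 1.21 CPM. Tac1, the substance P precursor gene, had an excess of 5.03 at a mean of 1240 CPM, but 42.1% of its squared deviations came from crush control sample 1, with 23.3, 2480 and 532 CPM. Nppb, the natriuretic peptide of NP3 pruriceptors, spanned a median of 39.2-fold between aliquots and at least 4-fold in 13 samples.

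Mrgprd, the receptor that marks NP1 neurons, had an excess of 5.53. All 12 aliquots of uninjured cKO samples held 317 to 721 CPM, with a within-sample SD of 0.381. In crush cKO samples the 12 aliquots ran from 0.919 to 234 CPM with a within-sample SD of 3.04, and sample 2 alone held 87.9, 3.93 and 223 CPM. The log2 SD per sample, less the median over genes of that sample, was on average 2.46 higher in crush cKO than in uninjured cKO samples. This difference did not pass adjustment (limma on the log2 SD per sample, adjusted p = 0.348). In crush control sample 1 all 3 aliquots were low, at 1.01 to 1.82 CPM.

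**Figure D2:**
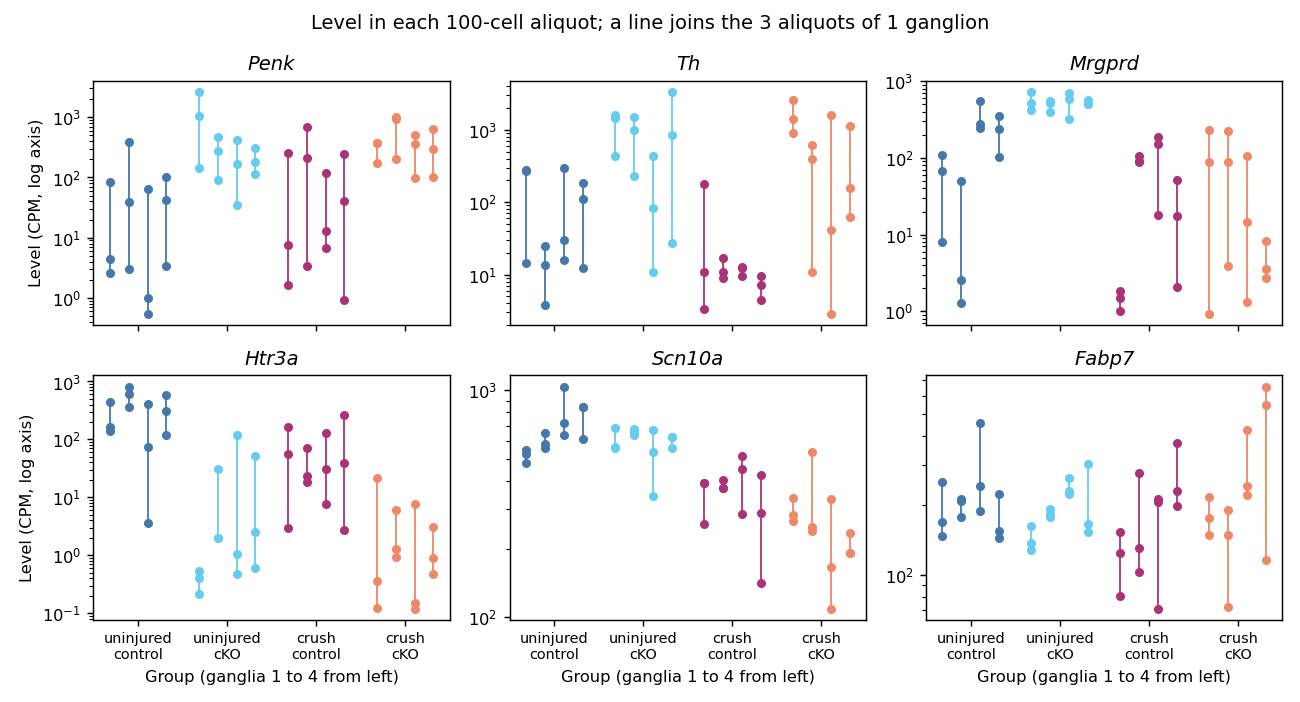
Level of 6 genes (y axes, CPM, log axes) in each aliquot, with the 4 ganglion samples of each group side by side and a line joining the 3 aliquots of a sample. Penk, Th and Htr3a differ by more than 10-fold within many samples, whereas Scn10a stays between 109 and 1040 CPM in all libraries.

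Among the genes with the smallest excess, Rpl29, a ribosomal protein gene, had an excess of -3.01, and Ppig, a peptidyl-prolyl isomerase gene, had -3.22 with aliquots that spanned a median of 1.11-fold. The lowest value belonged to the predicted gene Gm1821 (-3.50), followed by Gm26825 (-3.38) and Gm8797 (-3.18). Reads with several alignments were not counted, so ribosomal protein genes and predicted genes with near-identical copies have uncertain levels.

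Gene lists were then used to ask whether the variable genes belong to neuron subtypes or to other cells. Of 35 tested markers of neuron subtypes, 26 were among the 200 most variable genes (74.3%, median excess 3.57), against 2.36% of all genes tested (median excess 0.07). Of 19 tested markers of other cells, 2 were (10.5%, median excess 1.59), and of 53 genes of cell states, 9 were (17%, 1.83). Of 156 genes in the remaining lists, 2 were (1.28%, median -0.33); these are mostly pan-neuronal, ribosomal protein and respiratory genes, with 4 sex-linked genes and 1 protocadherin gene. These shares describe the lists and carry no test. The minimum of 10 CPM is a mean over all libraries, so a marker that is high in few aliquots can pass it through them. Mrgpra3 averaged 31.4 CPM in uninjured control and 11 CPM in crush control, but 0.0715 and 0.067 CPM in uninjured and crush cKO libraries. Sst averaged 70 and 9.28 CPM in these control groups and 0.147 and 0.197 CPM in the cKO groups. The part of the minimum in these shares was not tested. The remaining 161 of the 200 genes belonged to no list.

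Every neuron subtype list with tested members had a median excess above that of all genes. The satellite glia, Schwann, and vascular and fibroblast lists did as well, the last at 4.57 from 3 tested members. So did the regeneration-associated, immediate early, interferon-induced, pan-neuronal and mitochondrially encoded lists. The C-LTMR list stood at 4.64 with 4 of 4 tested members (Th, Fam19a4, Gfra2 and Piezo2) among the 200, although 57.1% of the squared deviations of Piezo2 came from crush cKO sample 3. The A-delta peptidergic list (PEP2) had 3 of 3 (S100a16, Kit and Npy2r), and the NP2 list had 3 of 3 (Mrgpra3, Mrgprb5 and Gfra1). Mrgpra3, the chloroquine receptor of NP2 neurons, held 125, 141 and 2.76 CPM in uninjured control sample 2 and 1.77, 0.0478 and 97.2 CPM in sample 1. It was below 1 CPM in all cKO aliquots. The NP1 list had 5 of 7 among the 200 (median 4.22), the NP3 list 5 of 6 (3.69) and the peptidergic list 4 of 6 (3.62). Large-fibre markers were less variable, with 2 of 6 (Nefh and Scn1a) and a median of 2.61. The cold-sensing list could not be judged, because its 3 genes were below 10 CPM on average, Trpm8 at 7.72.

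The 19 tested markers of other cells had a median excess of 1.59, against 3.57 for neuron subtype markers, and 2 were among the 200. No macrophage, neutrophil, lymphocyte or erythrocyte marker reached a mean of 10 CPM, and the macrophage genes C1qa and Tyrobp averaged 0.152 and 0.322 CPM. The excess of these lists could therefore not be judged. The 12 macrophage markers summed to 1.39 to 227 CPM over the libraries, with a median span of 2.6-fold between aliquots. The satellite glia list had 0 of 10 tested members among the 200 and a median excess of 1.59. Its gene Fabp7, a lipid-binding protein gene, held 71.2 to 658 CPM over all libraries, with a median span of 1.89-fold between aliquots. The Schwann list had 0 of 6 (median 0.93). Its myelin gene Mag averaged 0.215 CPM. The 2 among the 200 were Dcn, the decorin gene of fibroblasts, and Rgs5, a regulator of G-protein signalling known from pericytes. Dcn had an excess of 5.42 and held 28.7, 133 and 0.364 CPM in crush cKO sample 3. The endothelial genes Pecam1 and Cldn5 averaged 0.332 and 0.0304 CPM and the fibroblast gene Lum 1.93 CPM. Dcn, Rgs5 and Col1a2, the tested members of the vascular and fibroblast list, had a median correlation of -0.09 with each other between aliquots. The part of vascular cells or fibroblasts in the spread of Dcn and Rgs5 was not tested.

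Among genes of cell states, 7 of 23 regeneration-associated genes were in the 200. They were Anxa1, Npy, Ecel1, Gal, Tubb6, Sprr1a and Bdnf. Atf3, the transcription factor gene induced in injured neurons, was not among them, with an excess of 2.18. Of 12 interferon-induced genes, Ifit1 (4.55) and Usp18 (3.33) were in the 200, and Usp18 spanned a median of 10.0-fold. Heat shock genes had a median excess of -0.63 and no member in the 200. Among genes shared by the neurons, Scn11a (4.07), the Nav1.9 channel gene, and Thy1 (3.26) were the 2 in the 200. Scn10a had an excess of 1.89, and Prph and Uchl1, made by nearly all small sensory neurons, had 0.13 and -0.48. Ribosomal protein genes had the lowest median of any list (-1.60).

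**Figure D3:**
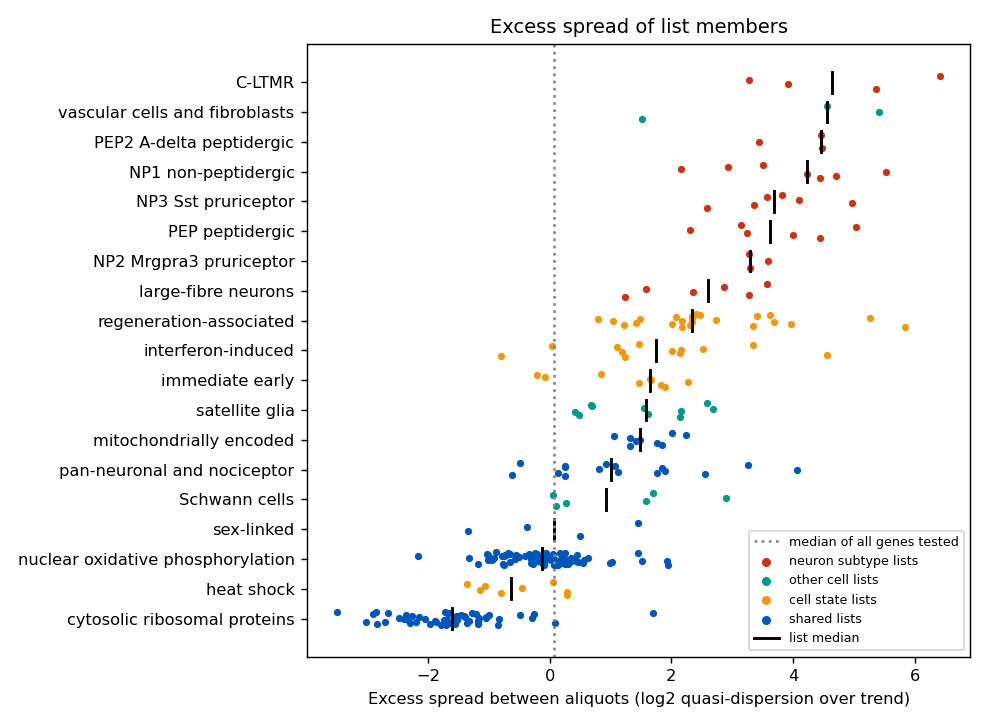
Excess spread between aliquots (x axis, log2) of each tested member of the lists with at least 3 tested members, 1 point per gene, coloured by class, with the list median as a bar and the median of all genes as a dotted line. The neuron subtype lists have medians from 2.61 to 4.64, the vascular and fibroblast list has 4.57, and the ribosomal protein list lies lowest at -1.60.

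The second question was which genes rose and fell together between aliquots once the mean of each ganglion sample had been removed. Correlations are Pearson r over the 48 libraries, which leave 32 free values, and are descriptive. Over all gene pairs the median r was 0.01, with 5% of pairs above 0.42 and 5% below -0.40. The NP1 markers had a median r of 0.60 with each other, and 0.59 without crush cKO sample 3. Mrgprd had its highest r with Lpar3, a lysophosphatidic acid receptor gene (0.90), then with the angiotensin receptor gene Agtr1a (0.85) and with Cd55, a complement regulator gene (0.83). In uninjured control sample 2, aliquots A, B and C held 1.30, 2.58 and 50.3 CPM of Mrgprd and 0.124, 0.397 and 39.9 CPM of Lpar3. In crush cKO sample 2 they held 87.9, 3.93 and 223 CPM of Mrgprd and 11.2, 2.20 and 25.5 CPM of Lpar3. The same aliquots were high for both genes in both samples.

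The upstream sequences of Mrgprd and Lpar3, the marker pair with the highest correlation, are shown because the genes moved together. Each is the 250 bases before the start of the RefSeq gene (GRCm38.p6, plus strand for both), at chr7:145314585-145314834 and chr3:146220711-146220960. Capitals would mark the RUNX core motif TGTGGT or its reverse complement, and neither occurs in these windows.
Mrgprd: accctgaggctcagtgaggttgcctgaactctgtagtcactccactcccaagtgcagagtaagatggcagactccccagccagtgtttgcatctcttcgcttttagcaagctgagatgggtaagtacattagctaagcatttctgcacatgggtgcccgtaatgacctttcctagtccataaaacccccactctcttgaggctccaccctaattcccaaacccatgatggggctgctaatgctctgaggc
Lpar3: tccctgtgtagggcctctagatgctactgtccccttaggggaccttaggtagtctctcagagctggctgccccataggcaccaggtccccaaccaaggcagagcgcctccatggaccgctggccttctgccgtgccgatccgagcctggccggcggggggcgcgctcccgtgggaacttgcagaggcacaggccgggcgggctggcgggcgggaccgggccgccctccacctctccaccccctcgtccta
The motif was found in 4 of the 26 genes of the largest module below that have an entry (15.4%), in 12.5% of all genes tested that have one, and in 15.9% of all genes in the table.

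The NP3 markers had a median r of 0.54, with 0.81 in uninjured control, 0.05 in uninjured cKO, 0.59 in crush control and 0.34 in crush cKO libraries. Nppb had an r of 0.75 with the interleukin-31 receptor gene Il31ra and of 0.74 with the serotonin receptor gene Htr1f, and Sst had its highest r with Htr1f (0.68), then with the neurotensin gene Nts (0.65). In uninjured control sample 1, Sst was at 55.2 CPM in aliquot A and had no count in B or C, where Nppb held 22.3, 1.96 and 0.138 CPM. In uninjured cKO samples Sst was at or below 0.406 CPM in all aliquots. Th had its highest r with Fam122b (0.78), Spink2 (0.77) and Mtfr1l (0.76), and Ceacam10 followed at 0.73. Ighg2c, an immunoglobulin heavy chain gene, was among the 200 and held 99.2, 74.9 and 85.4 CPM in uninjured cKO sample 1, while the B-cell genes Cd79a and Ms4a1 averaged 0.765 and 0.0246 CPM. The 3 tested NP2 markers had a median r of -0.20, with -0.46 in uninjured control and 0.32 in crush cKO libraries. One of them, Mrgpra3, was at or below 0.332 CPM in all cKO aliquots. With so few genes, joint movement of NP2 markers could not be judged.

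Markers of satellite glia had a median r of 0.40. Apoe, an apolipoprotein gene, had its highest r with Ttyh1 (0.81) and Fabp7 (0.73). The sum of the 11 satellite glia markers ran from 483 to 2060 CPM, with a median span of 1.4-fold between aliquots. The like sums spanned 1.6-fold for large-fibre, 1.76-fold for peptidergic, 1.89-fold for NP1 and 2.05-fold for NP3 markers. They spanned 2.33-fold for PEP2, 2.51-fold for C-LTMR, 2.58-fold for NP2 and 10.4-fold for cold-sensing markers. Among other cells, Schwann markers spanned 1.2-fold, erythrocyte 1.58-fold, vascular and fibroblast 2.57-fold, macrophage 2.6-fold and neutrophil and lymphocyte markers 2.81-fold. Some of these sums were low, with medians of 14.3 CPM for macrophage and 9.2 CPM for neutrophil and lymphocyte markers. The Schwann list had a median r of 0.03. Immediate early genes formed pairs, with r of 0.83 for Fos with both Fosb and Egr1, but 65.2% of the squared deviations of Fos came from uninjured control sample 4, at 16.7, 132 and 170 CPM. Mitochondrially encoded genes had the highest median r of any list (0.88), at a median excess of 1.49. Nuclear genes of oxidative phosphorylation had a median r of 0.55 at an excess of -0.12, a small spread beside their joint movement.

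Average linkage at r = 0.5 put 104 of the 200 genes into 5 modules of 10 or more genes. The largest, with 37 genes, was led by Kcnip2, Phf24, Synpr, Ctxn3, Scn11a, Acpp, Klhl5 and Wipf3. It held 5 NP1 markers, among them Mrgprd, Grik1, Cd55 and Lpar3, and the NP2 marker Mrgprb5. It also held Gfra2, a receptor gene for neurturin, and Trpa1, the irritant channel gene. Its median r was 0.65 over all libraries and lay between 0.63 and 0.75 within each of the 4 groups. The second module ranged from 0.51 to 0.85 by group, the third from 0.54 to 0.75, the fourth from 0.54 to 0.78 and the fifth from 0.34 to 0.81. The summed NP1 list had an r of 0.78 with the mean of the largest module and the summed C-LTMR list one of 0.61; since 5 NP1 members and Gfra2 are in the module, these sums are not independent of it. Genes outside the 200 with the highest mean r to the largest module were Cdh1 (0.73), Eml1 (0.71) and Ldb2 (0.71).

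A second module of 22 genes was led by Fam19a1, S100b, Clrn1, Vsnl1, Nfia, Cplx2, Fgf12 and Serpinb1b. It also held Htr3a, the neuronal pentraxin gene Nptx1 and the hormone receptor genes Esr1 and Prlr. S100b, a calcium-binding protein gene, was high in uninjured control aliquots (37.9 to 1480 CPM). In sample 3 it held 37.9, 963 and 784 CPM, and Htr3a was lowest in the same aliquot A. S100b is also made by glia, and the summed satellite glia markers had an r of -0.23 with this module.

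The third module (19 genes) was led by AI593442, Lhfpl3, Ccdc141, Necab3, Gm7271, Nrn1, Abcg1 and Ckmt1. It held the sodium channel genes Scn1a, Scn2b and Scn4b, the touch channel gene Piezo2, and Rgs5. The summed C-LTMR list, which shares Piezo2 with it, had an r of 0.82 with it. The fourth (16 genes) was led by Ngfr, Resp18, Ptgir, Syt2, Tmem100, Vat1l, Gng8 and Prokr2. It held Calca, the precursor gene of the peptide CGRP, the receptor tyrosine kinase gene Kit and the acid-sensing channel gene Asic3. The fifth (10 genes) was led by Thy1, Chst2, Tagln3, Abcg2, Nefh, Clu, Phactr2 and AI427809. Nefh, the heavy neurofilament gene, had its highest r with Nfasc (0.76), which encodes neurofascin. The summed large-fibre markers, Nefh included, had an r of 0.72 with the fifth module and the summed satellite glia markers one of -0.57. In aliquots A, B and C of uninjured control sample 3, the fifth module averaged -3.17, 1.42 and 1.75 (residuals scaled by gene). Aliquot A was the lowest of all libraries for this module, and its r values were not computed again without that sample.

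Between modules, the largest was positively correlated with the third (0.64) and weakly negatively with the fourth (-0.30) and the fifth (-0.35). The second, the fourth and the fifth were correlated at 0.64 to 0.69. Aliquot A of uninjured control sample 3 was low in each of them, at -2.27, -1.91 and -3.17, and its part in these correlations was not tested. Genes detected per library moved with the fourth module (r = 0.52) and the second (0.37), and the part of detection in these modules was not tested further. With genes detected removed as well, 105 genes fell into modules and the 37 genes of the largest stayed in 1 module. Without crush cKO sample 3, 27 of the 37 stayed together, and at r = 0.6 modules held 74 genes and 19 of the 37 stayed together. The summed vascular and fibroblast markers had r between -0.06 and 0.01 with all 5 modules.

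**Figure D4:**
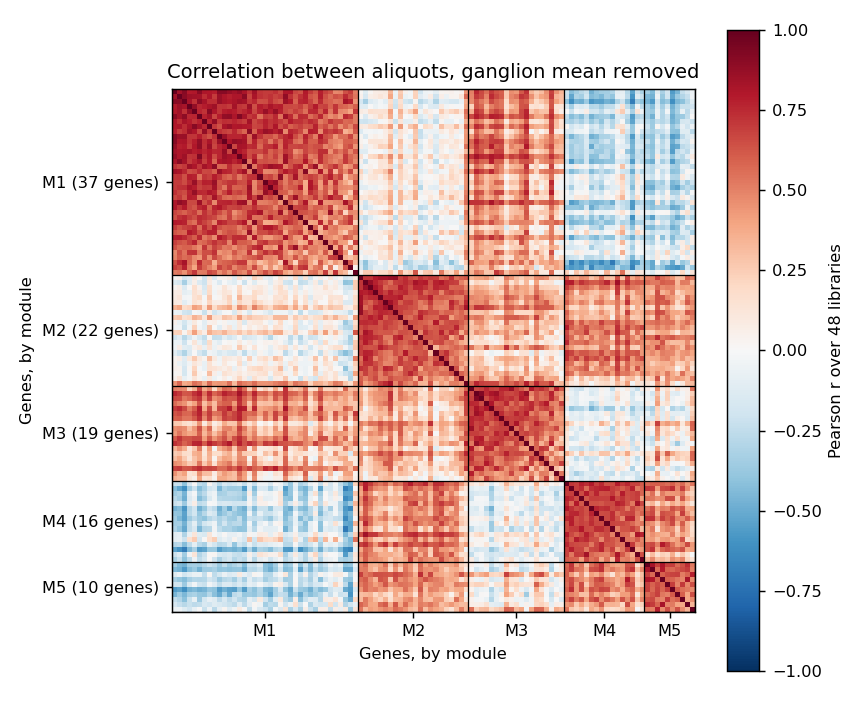
Pearson r over 48 libraries, after removal of ganglion means, between the 104 genes of the 5 modules (both axes, genes ordered by module). The genes were grouped by these same values, and the blocks off the diagonal show the largest module at 0.64 with the third and at -0.30 with the fourth.

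Several of the most variable genes belonged to no module. Penk had no partner above 0.66 (Hipk1), Anxa1 none above 0.60 (Dennd2a) and Cartpt, a neuropeptide precursor gene, none above 0.60 (Aqp1). Npy had its highest r with the regeneration-associated gene Sprr1a (0.66), and Gal with the potassium channel gene Kcnk3 (0.68). Tac1 had its highest r with the phosphodiesterase gene Pde11a (0.74). Dcn had its highest r with Prss41 (0.71), and 0.58 without crush cKO sample 3.

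Fth1, which encodes the ferritin heavy chain that stores iron in nearly all cells, had an excess of 5.18 at a mean of 1519 CPM, beside 5.03 for Tac1, 4.10 for Nts and 3.68 for Gal, which are also abundant. Its aliquots in uninjured control sample 3 held 545, 1130 and 4450 CPM, in crush control sample 2 150, 2750 and 2230 CPM, and in uninjured cKO sample 3 327, 298 and 3230 CPM. All 4 groups covered much the same range, from 150 to 371 CPM at the low end and from 2300 to 4450 CPM at the high end. Fth1 correlated with genes that are not subtype markers. They were the SNARE gene Vti1b (0.94), the basigin gene Bsg (0.94), the complex I gene Ndufa10 (0.92), the ATP synthase gene Atp5d (0.92) and the mitochondrial ribosome gene Mrpl54 (0.89). It had 9 partners with an r of at least 0.8, whereas 80.7% of the genes tested had none. These partners varied less than Fth1 itself, with SDs of 0.57 for Vti1b and 0.39 for Ndufa10 against 1.30. Fth1 had r of 0.27 with log2 total counts, 0.23 with genes detected, -0.25 with the mitochondrial share and -0.28 with the share of reads outside genes (permutation within samples, adjusted p = 0.245 for each of these). Spearman rho was 0.36, 0.30, -0.30 and -0.37 (adjusted p = 0.093, 0.110, 0.110 and 0.093). For the share of reads with several alignments, r was -0.17 and rho -0.18 (adjusted p = 0.305 and 0.314). Without the 2 libraries farthest from the median of each measure, these 5 values of r were 0.16, 0.18, -0.21, -0.32 and -0.14.

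The first principal component of the aliquot residuals was compared with 3 library measures. Its r was 0.53 with genes detected, -0.47 with the mitochondrial share and 0.22 with log2 total counts (permutation within samples, adjusted p = 0.153, 0.153 and 0.263). Spearman rho was 0.31, -0.26 and 0.28 (adjusted p = 0.153 for each). Without the 2 libraries farthest from the median, r was 0.38, -0.35 and 0.31, and without crush cKO sample 3 it was 0.20, -0.12 and 0.07.

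The letters A, B and C were compared in case they carry an order of sorting or preparation. With the ganglion sample as a block, 0 genes differed between letters (edgeR quasi-likelihood test), 221 had an unadjusted p below 0.05, and DESeq2 called 0 with 272 unadjusted. Between ganglion samples of a group, 310 genes differed beyond their aliquots (3.66% of genes tested; 194 without uninjured cKO sample 2 and 168 without crush cKO sample 1). Of these 310, 65, 35 and 43 were called again without letter A, B or C, where each sample has fewer aliquots. In the full comparison 4 of the 310 were among the 200 most variable (Rgs5, Ctxn3, Gfra2 and Mal2). The Y-linked genes Eif2s3y, Uty and Ddx3y and the X-inactivation gene Xist were among the 10 with the smallest p, and each group holds both sexes. The others were Klhl42, Pgbd5, Hopx, Zer1, Gm6368 and Morf4l1. Klhl42 had an SD of 1.07 between samples against 0.22 between aliquots (adjusted p = 2.557e-16). Penk (adjusted p = 0.788) and Th (adjusted p = 0.548) were not called between samples in this edgeR quasi-likelihood test.

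The last question was whether aliquots lay further apart in some groups. The median SD over all genes was 0.271, 0.320, 0.321 and 0.347 in uninjured control samples and 0.190, 0.166, 0.237 and 0.246 in uninjured cKO samples. The groups did not overlap, and the cKO mean was lower by 0.105 ± 0.0248 (SE, n = 4 and 4, exact two-sided permutation p = 0.0286, the smallest this design allows). Leaving out cKO sample 1 or 2 raised that p to 0.0571. Genes detected also separated these groups, at 18810 to 19930 per sample without Tsc2 and 17020 to 17930 in controls, and their part in the difference was not tested. The values were 0.282, 0.269, 0.255 and 0.311 in crush control samples and 0.209, 0.213, 0.485 and 0.330 in crush cKO samples. Crush control and uninjured control differed by -0.0357 ± 0.0198 (exact permutation p = 0.143, n = 4 and 4). Crush cKO and uninjured cKO differed by 0.0991 ± 0.0677 (exact permutation p = 0.229, n = 4 and 4). The crushed side was higher in all 4 same-numbered cKO pairs (exact sign-flip p = 0.125, the smallest that 4 pairs allow). Crush cKO and crush control differed by 0.0301 ± 0.066 (exact permutation p = 0.771, n = 4 and 4). The last difference was -0.028 without aliquot C of crush cKO sample 3. The difference by deletion after crush exceeded that without injury by 0.135, which did not pass an exact permutation of genotype labels within each side (p = 0.0735 over 4900 relabellings, a test added after the values were seen).

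**Figure D5:**
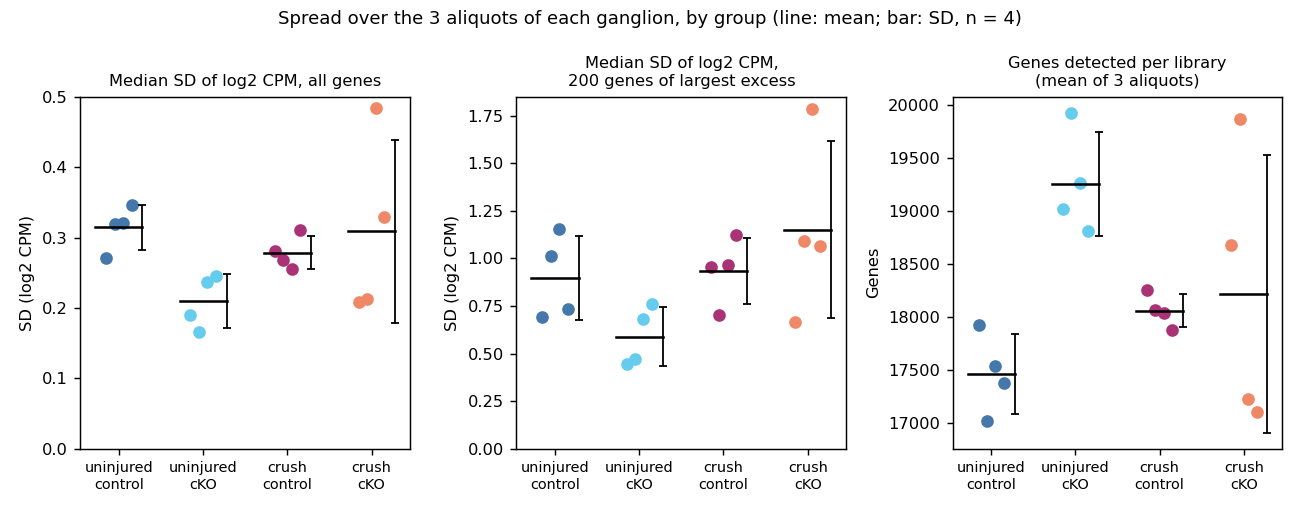
Median SD of log2 CPM over the 3 aliquots of each ganglion sample for all genes and for the 200 genes of largest excess, and genes detected per library (y axes), by group (x axis), with 1 point per sample, the mean as a line and the SD as a bar (n = 4). Uninjured cKO samples lie at 0.166 to 0.246 for all genes, below the 0.271 to 0.347 of uninjured controls.

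Single genes were compared for their spread over ganglion samples, after the median spread of each sample had been removed, among 7495 genes with at least 10 CPM in every group (limma on the log2 SD, Benjamini-Hochberg). Crush in controls called 4 genes (0.0534%), crush in cKO 1 gene (0.0133%), deletion without injury 3 genes (0.04%) and deletion after crush 0 genes (0%, with 416 at an unadjusted p below 0.05). Aldh3b1, an aldehyde dehydrogenase gene, had SDs of 1.74, 2.93, 1.30 and 3.40 in uninjured control samples and of 0.425, 0.445, 0.193 and 0.262 in crush control samples. Its aliquots were far apart in uninjured controls at a mean of 12 CPM and close in every other group (log2 ratio -2.49, adjusted p = 0.0203 in limma for crush, and -2.58, adjusted p = 0.00868 for deletion). Nmb, the neuromedin B gene, went the other way. Its SDs were 0.169, 0.241, 0.109 and 0.0611 in uninjured controls at a mean of 262 CPM and 0.792, 0.980, 0.466 and 1.44 after crush at 120 CPM (log2 ratio 2.43, adjusted p = 0.0203 in limma).

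Kit had SDs of 0.214 to 1.09 in uninjured controls, where it averaged 111 CPM, and of 1.64 to 2.89 in uninjured cKO samples, where it averaged 13.9 CPM (log2 ratio 2.62, adjusted p = 0.00868 in limma). The spread and the level of Kit thus changed together, and their parts were not separated. Slc30a7 (-2.25) and Tmem106a (2.29) were also called for crush in controls, both at an adjusted p of 0.0444 in limma, and Ttyh2 (2.38, adjusted p = 0.0195) for deletion without injury. The 1 gene called for crush in cKO was Xist (log2 ratio -3.54, adjusted p = 0.00278 in limma). This call rests in part on samples that lack the transcript: in the male samples 1 and 2, Xist had no count in any crush cKO aliquot and at most 0.339 CPM, in 1 aliquot each, in uninjured cKO. In the female samples 3 and 4 its SDs were 0.778 and 0.76 in uninjured cKO and 0.12 and 0.30 in crush cKO. Without uninjured control sample 4, no gene was called for crush in controls, crush in cKO or deletion without injury. Calls for crush in controls also fell to 0 without uninjured control sample 3 or crush control sample 1 or 2, and rose to 9 without crush cKO sample 3. The call for crush in cKO was also lost without uninjured cKO sample 2.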

How the data were processed

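RNA of about 100 sorted cells per library was amplified with the SMARTer Ultra Low kit and read as single reads, per the labels' protocols. The deposited values are raw counts per gene, one file per library; STAR, HTSeq and the mm10 build are named in the submitters' processing notes, without versions. HTSeq's summary lines stayed out of library sizes: 5.921 to 19.368% of reads lay outside genes and 37.488 to 46.12% had several alignments. Libraries held 5159353 to 34228180 counts, and the smallest limit the precision of low genes. The labels call the 3 aliquots technical replicates, so tests between ganglion samples over aliquots speak of these samples only.

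Counts were scaled by TMM and fitted with one mean per ganglion sample in edgeR 4.0.16 (R 4.3.3). Each quasi-dispersion was set against its trend by an upper-tail robust F probability with Benjamini-Hochberg adjustment. Residual correlations used log2 CPM with a prior count of 2. Spread per gene was tested in limma 3.58.1 on log2 of the SD plus 0.05, and DESeq2 1.42.0 was an alternative. The edgeR and limma steps were run on simulated counts with known changes, and the rates of calls there are not reported here. Named genes are the 25 largest and 5 smallest excesses, list members, the 5 best partners of seed genes, the 10 smallest p between samples, called spread genes and 8 leading genes per module, of which examples are given and some are not reported here; Fth1 partners and Ighg2c were added after their values were seen. Since 2 genes were called, modules were built among the 200 largest excesses. Members and lists were chosen with earlier results of these data known. Same-numbered samples of the 2 cKO groups deviated together (r = 0.26 to 0.40). For the 2 control groups r was 0.07 to 0.40, and across genotypes, which are different animals, it was 0.04 to 0.33. The labels do not say that a number marks 1 animal on both sides, so pairing by number is an assumption that was not tested.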

Additional observations from a re-analysis of the deposited data

How the results depend on the processing

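The count of variable genes (2) depended most on the settings. It was 0 with a minimum of 50 CPM, with genes detected as a covariate and without letter A, B or C, 22 with counts thinned to the smallest library, 21 without aliquot C of crush cKO sample 3, 67 with limma-voom and 369 as DESeq2 dispersion outliers, and 0 to 21 when each sample was left out. The ranking moved less: 181 to 196 of the 200 genes remained when a sample was left out, 189 after thinning, 159, 164 and 173 without letter A, B or C, 154 with limma-voom, and 125 with the 50 CPM minimum. Genes differing between samples numbered 310, 1140 with DESeq2 and 168 to 389 when a sample was left out.

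The lower median SD by deletion without injury was -0.105 with the replicate block too, where the smallest possible exact p is 0.125, and -0.0902 to -0.119 when a sample was left out. Deletion after crush changed from 0.0301 to -0.028 without aliquot C of crush cKO sample 3, and ranged from -0.0284 to 0.0636 when a sample was left out. Genes with a different spread after crush in controls (4) numbered 0 without centring, 2 after thinning, 7 with a constant of 0.2 and 0 to 9 when a sample was left out. For crush in cKO (1) they numbered 4 without centring, 0 after thinning and 0 to 1 when a sample was left out, and for deletion without injury (3) 0 to 4. For deletion after crush (0) they numbered 0 to 1. The replicate block gave 3, 1, 3 and 0 in these 4 comparisons. The causes were not tested.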
